A study of Mus musculus with 2 samples.

Results

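The keratin and epidermal differentiation gene clusters of the mouse were examined in a DNA methylation array study of embryonic fibroblasts. They were taken as 4 windows of the mm9 genome fixed by position alone. These were the epidermal differentiation complex on chromosome 3 (92.00 to 93.85 Mb), the type I keratins with keratin-associated genes on chromosome 11 (98.97 to 100.09 Mb), the type II keratins on chromosome 15 (101.04 to 101.83 Mb) and a group of keratin-associated genes on chromosome 16 (88.60 to 89.30 Mb). The windows held 1369 of the 174638 genomic probes of the array, namely 426, 455, 296 and 192 in this order. No measured value enters this position rule, though it was set with earlier results of these data known. The levels and differences below use only the probes that passed a filter on input signal. The files give probe positions and no gene names, so the arrays could not be read gene by gene, and whether each probe lies in an exon, intron or untranslated region is not given here.

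Keratins are the intermediate filament proteins of epithelial cells, and a filament is built from pairs of 1 type I and 1 type II keratin. Basal keratinocytes are known for Krt5 paired with Krt14, cells above them for Krt1 paired with Krt10, and simple epithelia for Krt7 and Krt8. The epidermal differentiation complex encodes proteins of the cornified envelope, the cross-linked shell of dead surface cells, among them loricrin (Lor), involucrin (Ivl), the small proline-rich (Sprr) and the late cornified envelope (Lce) proteins. Keratin-associated proteins (Krtap genes) fill the space between keratin filaments in the hair shaft. The keratin, cornified envelope and keratin-associated genes named here are known chiefly for their use in epidermis, other epithelia and hair, not in connective tissue. The lists used below also hold other genes, such as S100a11, of which this is not said. An antibody against 5-methylcytosine binds methylated cytosines, which in fibroblasts lie mainly in CG dinucleotides, so what it can pull down also depends on how many CG a fragment holds.

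Promoters of the epidermal differentiation and keratin-associated gene lists held few CG. In RefSeq windows of 300 bases, from 250 before to 50 after a gene's start, CG was counted on the gene's strand, which reads the same on the other strand. Where a gene had several starts, that with the most CG was used. All 27025 genes with a window had a median of 8 CG, and 94.6% held at least 1. The 20 late cornified envelope genes matched out of 21 had a median of 1 (0 to 4), and 6 of them had none. The 14 small proline-rich genes also had a median of 1 (0 to 5). Of 15 other listed genes of the complex 13 matched, with a median of 1, and S100a11, a calcium-binding protein gene, stood apart with 15. Keratin-associated genes had a median of 2 on chromosome 11 (21 of 23 matched, 8 of them with no CG) and of 3 on chromosome 16 (23 of 24 matched). For the type I keratins (20 of 26 matched) and the type II keratins with Krt18 (16 of 26) too few promoters were in the table, so no summary is given for them. The 6 promoters that follow show this range, from Ivl with 0 CG to Krt7 with 21, in lower case with every CG in capitals, 5′ to 3′ on the gene's strand. They come from RefSeq on the build GRCm38.p6, which is not that of the array, and their positions were not set against those of the probes. Whether each listed gene lies inside the windows measured on the array was not settled.
Lor (GRCm38.p6, chr3:92083093-92083392, - strand): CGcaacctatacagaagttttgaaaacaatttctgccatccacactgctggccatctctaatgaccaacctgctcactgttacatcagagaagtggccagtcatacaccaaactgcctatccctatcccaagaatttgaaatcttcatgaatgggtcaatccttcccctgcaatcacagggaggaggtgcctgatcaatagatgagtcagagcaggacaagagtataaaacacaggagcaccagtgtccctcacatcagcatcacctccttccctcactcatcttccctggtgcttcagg
Ivl (GRCm38.p6, chr3:92573686-92573985, - strand): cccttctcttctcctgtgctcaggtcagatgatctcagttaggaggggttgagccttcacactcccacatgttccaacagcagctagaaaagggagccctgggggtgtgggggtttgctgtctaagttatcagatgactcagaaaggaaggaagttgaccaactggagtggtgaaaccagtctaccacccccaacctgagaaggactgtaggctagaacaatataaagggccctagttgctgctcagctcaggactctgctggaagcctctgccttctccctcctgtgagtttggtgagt
Krt10 (GRCm38.p6, chr11:99389315-99389614, - strand): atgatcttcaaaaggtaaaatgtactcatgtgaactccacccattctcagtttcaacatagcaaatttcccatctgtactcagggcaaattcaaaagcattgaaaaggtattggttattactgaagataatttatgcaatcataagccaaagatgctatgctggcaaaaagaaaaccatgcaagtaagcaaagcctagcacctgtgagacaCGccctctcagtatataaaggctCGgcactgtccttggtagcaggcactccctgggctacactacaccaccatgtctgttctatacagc
Krt5 (GRCm38.p6, chr15:101712856-101713155, - strand): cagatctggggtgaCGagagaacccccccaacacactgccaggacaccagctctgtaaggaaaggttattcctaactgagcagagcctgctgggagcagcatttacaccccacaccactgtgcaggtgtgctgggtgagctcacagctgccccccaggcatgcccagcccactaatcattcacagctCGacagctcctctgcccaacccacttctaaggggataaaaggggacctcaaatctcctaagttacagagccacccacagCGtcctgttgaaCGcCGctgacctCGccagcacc
Krt7 (GRCm38.p6, chr15:101412153-101412452, + strand): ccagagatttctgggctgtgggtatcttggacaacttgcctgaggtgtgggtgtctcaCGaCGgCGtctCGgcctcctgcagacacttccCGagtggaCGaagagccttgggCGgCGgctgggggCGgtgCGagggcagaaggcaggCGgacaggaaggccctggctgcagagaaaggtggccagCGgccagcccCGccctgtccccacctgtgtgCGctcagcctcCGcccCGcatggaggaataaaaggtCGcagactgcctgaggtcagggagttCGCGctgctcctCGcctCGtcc
Krtap11-1 (GRCm38.p6, chr16:89571134-89571433, - strand): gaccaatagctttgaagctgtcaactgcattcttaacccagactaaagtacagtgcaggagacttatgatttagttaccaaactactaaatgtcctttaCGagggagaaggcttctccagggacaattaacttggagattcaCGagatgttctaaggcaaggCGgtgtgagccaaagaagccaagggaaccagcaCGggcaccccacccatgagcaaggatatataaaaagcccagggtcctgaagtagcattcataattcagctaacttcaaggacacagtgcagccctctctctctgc
Lor has 1 CG, at the upstream end of the window, and Ivl has none. Krt10 has 2, Krtap11-1 has 4, Krt5 has 6 and Krt7 has 21. Methylation of single promoters cannot be read from these letters.

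The study compared 2 cultures of C57BL/6 mouse embryonic fibroblasts taken at stage E14.5. Both had been depleted of cells bearing CD45, CD41, CD31 or c-Kit and grown on feeder fibroblasts stopped with mitomycin, which are of the same cell type. One received no agent and the other 100 µM thymidine for 2 days, and a source label of the treated sample also names sorting by the blood cell protein CD45. DNA was sheared to 200 to 1000 bp, and the precipitate, labelled with Cy5, was hybridised with Cy3-labelled input DNA. For the treated array the labels give the input as fibroblasts in one field and as thymidine-treated in another. The array measures DNA and no transcripts, so the labelled cell type could not be checked against expressed markers. With 1 array per condition there is no spread between replicates. No difference between the conditions was tested, and condition, slide position, sorting and scan cannot be told apart.

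The measured quantity is log2 of Cy5 over Cy3, set to a median of 0 on each array, so a value of -1 means that a probe had 2-fold less precipitate per input than the typical probe. Probes were kept where neither channel was flagged as an outlier and where both arrays had input well above background. Of the 1369 probes 1024 (74.8%) were kept, against 81.6% over the array. The share was 90.5% in the type II keratins, 77.6% in the type I keratins, 66.1% in the keratin-associated genes of chromosome 16 and 64.8% in the epidermal differentiation complex. No probe of the clusters was saturated. Input was well above background at 83.0% of all cluster probes in untreated and 74.9% in treated cells, against 88.4% and 81.7% over the array. Among kept probes of the 4 clusters the precipitate was well above background at 81.1% in untreated and 79.9% in treated cells, against 85.1% and 83.8% over the array. Where it was not, the ratio is only an upper bound on the true one. Spots of the same control probe within an array (19 probes, 165 spots) had a median SD of 0.09 in untreated cells, 0.11 in treated cells and 0.14 for the difference. Mean differences of these control probes between the arrays reached from -0.50 to 0.62, so single differences of that size occur in probes outside the genome tiling.

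All 4 clusters had a median ratio below that of the array in both cultures. The epidermal differentiation complex was lowest, at -0.22 in untreated cells (quartiles -0.90 and 0.28, 276 probes) and -0.20 in treated cells (quartiles -0.73 and 0.23). The type I keratin cluster followed at -0.15 (quartiles -0.79 and 0.36, 353 probes) and -0.13 (quartiles -0.62 and 0.30). The keratin-associated genes of chromosome 16 had -0.14 (quartiles -0.73 and 0.35, 127 probes) and -0.10 (quartiles -0.56 and 0.39). The type II keratins lay nearest to the array, at -0.05 (quartiles -0.54 and 0.42, 268 probes) and -0.08 (quartiles -0.60 and 0.35). These shifts are small beside the spread of probes within each cluster, whose quartiles lie on both sides of 0. The 95% intervals of the medians, from binomial order statistics over probes, were -0.34 to -0.07 in untreated cells for the epidermal differentiation complex and -0.21 to -0.07 for the type I keratins. For the type II keratins (-0.15 to 0.04) and chromosome 16 (-0.37 to 0.01) they included 0. With loess normalisation the chromosome 16 median in untreated cells turned to 0.02. The intervals cover the sampling of probes only, and probes on shared fragments are not independent.

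Low ratios were more frequent than over the array in the epidermal differentiation complex. At -1 or less were 62 of 276 probes (22.5%, 95% Wilson interval 17.9% to 27.7%) of the epidermal differentiation complex in untreated cells, where the background over all probes is 15%. The treated array had 48 (17.4%, interval 13.4% to 22.3%) against a background of 11.3%. The last 30 kept probes of the window, a stretch picked after its values were seen, held 16 of the 62 and 14 of the 48. Over the 246 probes before them the shares were 18.7% and 13.8%. Few low probes of the complex had a measured precipitate on both arrays. These were 1 of 18 with a mean level below -2 and 7 of 35 between -2 and -1. In the type I keratins the share was 17.6% (interval 13.9% to 21.9%) and 12.7% (interval 9.67% to 16.6%), in the type II keratins 14.2% (interval 10.5% to 18.9%) and 13.4% (interval 9.86% to 18.0%), and on chromosome 16 it was 15.7% (interval 10.4% to 23.1%) and 8.66% (interval 4.91% to 14.8%). All 6 of these intervals include the background. High ratios were scarcer than the background in untreated cells, with 51 of 1024 probes at 1 or more (4.98%, interval 3.81% to 6.49%, background 7.17%). In treated cells there were 62 (6.05%, interval 4.75% to 7.69%), and this interval includes the background of 7.6%. The intervals cover counting of probes only. On both arrays 123 of the 1024 probes were at -1 or less and 36 at 1 or more. Over all kept probes of the array these were 14458 and 7348 of 142569. The arrays correlated at 0.93 over the 1024 probes, as over the array.

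Over probes measured in both channels the medians were 0.04 in untreated and 0.0052 in treated cells in the epidermal differentiation complex (197 probes), -0.0074 and -0.0051 in the type I keratins (285), 0.06 and 0.09 in the type II keratins (225) and 0.08 and 0.07 on chromosome 16 (98). The same choice of probes moved the array median to 0.15 and 0.14, so each cluster stayed below it. Among these probes the type I keratins, and not the epidermal differentiation complex, were lowest on both arrays. That filter favours high ratios. The input itself was dimmer in the epidermal differentiation complex, with a median log2 input signal of -0.58 and -0.56 relative to the array, and on chromosome 16 (-0.24 and -0.30), while the type II keratins were brighter (0.19 and 0.32). The part of signal strength in the ratios was not tested.

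Next to the clusters the ratios were mostly higher. Probes within 1 Mb on either side had medians of 0.05 and 0.04 around the epidermal differentiation complex, 0.04 and 0.02 around the type I keratins and 0.11 and 0.17 around the type II keratins. The shares at -1 or less in these flanks were 20.4% and 17.3%, 11.4% and 8.90%, and 10.1% and 5.91%, so around the epidermal differentiation complex they came close to those inside it. Around the chromosome 16 group the flanks were as low as the cluster, at -0.15 and -0.11. Whether these flanks also hold keratin-associated genes was not settled. Other clustered gene families gave values on both sides. Olfactory receptor genes of chromosome 2, a family of odour sensors, had -0.35 in both cultures, and the natural killer gene complex on chromosome 6, which encodes lectin-like immune receptors, had -0.38 and -0.27. The 4 Hox clusters, which pattern the body axis, had 0.12 and 0.14. The keratin and epidermal clusters lay between these. The Hox window of chromosome 15 overlaps the flanks of the type II keratins, so the Hox and flank values share probes. None of these contrasts was tested, since arrays and not probes are the replicates.

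The probes were tiled in 179 short regions, of which 173 had at least 3 kept probes (a median of 6 over 1514 bp), and their medians show where in each cluster the ratio was low. In untreated cells 116 of the 173 lay below 0 (67.1%, background 49.6%), and in treated cells also 116 (background 49.5%). By cluster these were 38 and 40 of 53 in the epidermal differentiation complex, 43 and 38 of 60 in the type I keratins, 19 and 22 of 36 in the type II keratins and 16 and 16 of 24 on chromosome 16. At -1 or less were 10 regions in untreated (5.78%, background 4.97%) and 2 in treated cells (1.16%, background 3.69%), and none reached 1 on either array. The share of regions below 0 exceeded the background on both arrays, while that of very low regions was near it in untreated cells. The 2 very low regions of treated cells are too few to compare with their background.

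In the epidermal differentiation window the region with the highest mean level over both arrays was on chromosome 3 from 92451743 to 92453200. Its median was 0.77 in untreated (SD over 5 probes 0.92) and 0.81 in treated cells (SD 1.07), and 4 of its 5 probes were above 0 on both arrays. The region from 92760761 to 92761646 had 0.82 and 0.57, but with 2 of 4 probes measured in the precipitate. The third, from 93357740 to 93359497, had 0.18 and 0.58 (SD over 8 probes 1.09 and 1.07). The far end of the window was different. Its last 5 regions with kept probes lay from 93479716 to 93765484 and had 3 of 7, 6 of 7, 5 of 7, 3 of 6 and 0 of 3 probes with a measured precipitate on both arrays, in order of position. Over their 30 probes the median was -1.11 in untreated and -0.96 in treated cells, against -0.13 and -0.15 over the 246 probes before them. Where the precipitate was not measured these ratios are upper bounds. Over the 17 measured probes the medians were -0.13 and -0.0043, against 0.06 and 0.0082 before. This stretch was picked after its values were seen. In the gene order of GRCm38.p6 a group of Tdpoz genes, encoding proteins with TRAF and POZ domains, follows S100a11 and S100a10 at this end of the complex. Which of these regions belong to them is not settled here.

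Among the type I keratins the highest regions lay at the start of the window. On chromosome 11 from 99015897 to 99017574 the median was 0.53 in untreated and 0.88 in treated cells (SD over 7 probes 1.46 and 1.20). Its first 5 probes lay between 0.39 and 1.48 in untreated cells, and its sixth, with no measured precipitate, was far below them. The region from 99104961 to 99106666 had 0.46 and 0.88, and that from 99250188 to 99251571 had 0.62 and 0.47. The lowest were those from 99382076 to 99383770 (-1.10 and -0.67, SD over 8 probes 1.24 in untreated cells), from 99452192 to 99453904 (-1.08 and -0.80, 4 probes) and from 99724505 to 99725820 (-0.99 and -0.77, 4 probes). High and low probes occurred within single regions. Over the 173 regions of the 4 clusters the median SD among probes of a region was 0.77 in untreated and 0.70 in treated cells, against an SD between region medians of 0.51 and 0.43.

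The regions of the type II keratin window lay close together. Their medians ran from -0.89 to 0.44 in untreated and from -0.78 to 0.40 in treated cells, with an SD over regions of 0.34 on each array, against 0.56 and 0.50 over the array. The highest regions were on chromosome 15 from 101321445 to 101323188 (0.36 and 0.37, all 9 probes measured), from 101122469 to 101124019 (0.44 and 0.22) and from 101096056 to 101097643 (0.24 and 0.40). At the low end were those from 101699817 to 101701324 (-0.89 and -0.69), from 101418566 to 101419892 (-0.71 and -0.78) and from 101458120 to 101459750 (-0.66 and -0.70). No region of this window reached -1.

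On chromosome 16 the regions further along the window had a lower median than those before them. The highest regions were from 88962828 to 88964298 (0.43 and 0.48, 5 probes, all measured), from 88751378 to 88752891 (0.29 and 0.38) and from 88896421 to 88897972 (0.34 and 0.16). The lowest lay close together, from 89015252 to 89015826 (-1.62 and -0.72, 3 probes), from 89041632 to 89042854 (-1.34 and -0.84, 3 probes) and from 89063751 to 89064639 (-0.88 and -0.54, 4 probes). Over the 7 regions from 89010686 on, the probe medians were -0.53 and -0.54, against -0.07 and -0.05 over the 17 before, a division made after the values were seen. The medians over regions were -0.53 in untreated and -0.24 in treated cells, against -0.10 and -0.07 before. Over the 21 of 29 probes measured on both arrays the medians were -0.17 and -0.47, against 0.19 and 0.11 before.

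The second question was whether the ratio differed after thymidine. Over the 1024 probes the median difference, treated minus untreated, was 0.07 (SD 0.35), the same as over the array (0.07, SD 0.36). It was 0.08 in the epidermal differentiation complex (SD 0.37, 171 of 276 probes above 0), 0.08 in the type I keratins (SD 0.33, 204 of 353) and 0.10 on chromosome 16 (SD 0.37, 80 of 127). In the type II keratins it was -0.0029 (SD 0.35), with 134 of 268 probes above 0, where the background is 57.5%. The order-statistic intervals were 0.04 to 0.14, 0.03 to 0.12, 0.05 to 0.17 and, for the type II keratins, -0.05 to 0.06. The flanks of the type II window had a difference of 0.10. Relative to the array median the type II value was between -0.07 and -0.03 under the main and 10 other settings, all drawn from the same 2 arrays. In this cluster the input differed by 0.04 and the precipitate by -0.01, against 0.01 and 0.01 over the array. In the authors' deposited table the median difference turned to -0.04 in the type I keratins and -0.0086 on chromosome 16, where that of all probes moved by -0.11. An effect of the array cannot be told apart from thymidine.

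Large changes were few. At a difference of 1 or more, which is 2-fold, were 12 of the 1024 probes (background 1.07%), and none was at -1 or less (background 0.0926%). By the scanner software's own error 21 probes (2.05%, background 2.95%) differed by more than 2 errors. Of the 173 regions 113 had a median difference above 0 (65.3%, background 65.1%), and 146 were within 0.25 of 0 (84.4%, background 83.5%). By cluster those above 0 were 40 of 53 in the epidermal differentiation complex, 39 of 60 in the type I keratins, 17 of 36 in the type II keratins and 17 of 24 on chromosome 16. Regions count as higher or lower here where the median difference reached 0.5 in size and 80% of the probes shared its sign. This held for 3 regions as higher, 2 in the epidermal differentiation complex and 1 on chromosome 16 (background 0.706%) and for 1 region of the type I keratins as lower (background 0.0558%), numbers too small to compare with those shares. In 1 of the 3 higher regions, the one that ends the epidermal differentiation window, no probe had a measured precipitate, so its place in the count rests on ratios that are only bounds.

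The higher region with the most probes was on chromosome 3 from 93479716 to 93481431, the first of the low stretch described above. In all 7 probes the ratio was higher in treated cells, with medians of -1.67 and -1.25 and a median difference of 0.54 (SD over probes 0.26). Its 3 probes with a measured precipitate went from -0.77 to 0.12, from -0.22 to 0.02 and from -0.13 to 0.17, and their median difference was 0.31 when only such probes were used and centred. The other 4 were not well above background on either array. The input signal of the region differed by -0.32, treated minus untreated, and the precipitate by 0.21. Low ratios were also higher in treated cells over the whole array. Its kept probes with a mean level from -2 to -1 had a median difference of 0.31 and an input difference of -0.28. With this trend with level removed, the difference of the region was 0.28. The part of the trend in the region's difference was not tested.

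At the end of the same window, from 93764947 to 93765484, none of the 3 probes had a precipitate well above background on either array, so no ratio or fold is given. Its input was -0.59 in untreated and -1.09 in treated cells relative to the array. In the authors' deposited table the medians over these probes were -1.52 and -1.50.

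On chromosome 16 from 89015252 to 89015826 the 3 kept probes, all measured in both channels, went from 0.27 to 0.51, from -1.62 to -0.72 and from -2.24 to -1.52. The median difference was 0.72 (SD 0.34), with an input difference of -0.53 and a precipitate difference of 0.30. With the trend with level removed it was 0.34. With dim probes left in, the region had 7 probes and a difference of -0.25, so its direction depends on that filter.

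The lower region was on chromosome 11 from 99235718 to 99237047, in the type I keratin window. Its 3 measured probes went from -0.23 to -0.46, from 0.18 to -0.36 and from 0.43 to -0.10. Of the 2 others, neither measured in the precipitate, 1 was lower and 1 higher. The median difference was -0.53 (SD over 5 probes 0.43), with an input difference of 0.29 and a precipitate difference of -0.32. The authors' deposited table had a difference of -0.31 over the same 5 probes. In that table none of the 173 regions passed the rule (0 higher and 0 lower), nor did any with normexp background correction (0 and 0).

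None of the type II keratin regions passed the rule. The lowest differences with a shared sign in that window were small. One region lay on chromosome 15 from 101770259 to 101772030, where 8 of 9 probes were lower in treated cells and every probe was measured in both channels. The ratios ran from -0.55 to 0.86 in untreated cells, with a median of 0.28, and from -0.58 to 0.35 in treated cells, with a median of 0.17. The median difference was -0.17 (SD 0.18). In the region from 101362761 to 101364110 all 5 probes were lower, by a median of -0.18 (SD 0.17). The regions with the highest difference of this window were from 101699817 to 101701324 (0.27, SD 0.40) and from 101332954 to 101334320 (0.18, SD 0.22). In the former 3 of 6 probes had a measured precipitate on both arrays, and with such probes alone the difference was 0.13. In the latter all 5 probes were measured and 4 were higher, while the probe at the median on both arrays was the one that was lower (0.19 and -0.02).

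In the other windows the regions with the highest and lowest differences are given only where 80% of the probes shared a sign. On chromosome 16 from 88874257 to 88875444 all 4 probes were higher, by a median of 0.49 (SD 0.20), just under the size rule, and the median ratio went from -0.30 to 0.02. In the type I keratins the regions from 99957042 to 99958425 and from 99452192 to 99453904 were higher by 0.37 (SD 0.26) and 0.36 (SD 0.16). With measured probes alone these became 0.10 (3 of 6 probes) and 0.39 (3 of 4 probes). The region from 99847422 to 99848986 differed by -0.30 (SD 0.33). In the epidermal differentiation complex the region from 92392652 to 92394188 differed by -0.26 (SD 0.27), with 5 of 6 probes lower. The next with a shared sign was that from 92736310 to 92737362, at -0.11 (SD 0.57), and on chromosome 16 that from 88885035 to 88886427, at -0.09 (SD 0.50), or -0.27 over its 3 measured probes. For both, as for the regions at -0.30 and -0.26, the SD over probes exceeded the size of the difference. Without the rule on sign the lowest region differences were -0.40 in the epidermal differentiation complex and -0.32 on chromosome 16, each from 3 probes of which 1 was higher.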

How the data were processed

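Methylated DNA immunoprecipitation was read on 2 tiling arrays, 1 per culture. The deposited intensity values are, per the file headers, from Agilent Feature Extraction 11.0.1.1 on the mm9 build. They comprise processed signals, background-subtracted and scaled between dyes, and raw medians of spot and background. Deposited log10 values of Cy5 over Cy3 matched these signals within 1e-06 at 95.7% and 95.2% of the probes of the clusters. The authors' table of log ratios is taken as log2. No source used here states its base or normalisation. Medians of its columns were -0.01 and -0.02, and slopes against the scanner ratios over these probes were 0.44 and 0.47.

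From the processed signals log2(Cy5/Cy3) was computed and centred on each array's median over kept probes, with no loess or quantile step. Regions join probes whose starts lie under 1000 bp apart, with at least 3 kept probes. Named regions are, in each cluster, the 3 highest and 3 lowest by level and the 2 highest and 2 lowest by difference with 80% of probes of 1 sign. Of 34 named regions, 4 passed the size rule. The members, lists and rules were chosen with earlier results of these data known. Of 174638 probes 57 had an outlier flag, 1 of them in the clusters. The limma 3.58.1 package gave the normexp (offset 50) and loess alternatives. Region counting was tested on simulated data. Gene lists were used for promoters only, because no annotation of the mm9 build was used here, and genes were matched by symbol. A list with under 80% of its genes in the promoter table has no summary.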

Additional observations from a re-analysis of the deposited data

How the results depend on the processing

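With 1 array per condition no test was possible under any setting, and every setting below comes from the same 2 arrays. Of 11 alternatives, windows shortened by 100 kb, centring on all probes and a gap of 500 bp moved none of the results they apply to beyond the interval of the median or 1.5 times the count. The medians of the epidermal differentiation complex and of both keratin clusters stayed below that of the array under all settings that give a level. That of chromosome 16 in untreated cells turned to 0.022 with loess. With normexp the treated level of the epidermal differentiation complex was -0.090.

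The differences of clusters followed the scaling. In the epidermal differentiation complex, the type I and the type II keratins the median was 0.0051, -0.0074 and -0.062 after quantile normalisation. Removal of the trend with level gave 0.0061, -0.013 and -0.073. Both steps centre the difference by construction. The authors' deposited table had 0.0073, -0.039 and -0.12, and -0.0086 on chromosome 16. That table moves the median difference of all probes by -0.11, and relative to it the clusters had 0.05, 0.0070, -0.07 and 0.04. From the precipitate channel alone it was 0.022 in the epidermal differentiation complex, 0.018 in the type I keratins and 0.0079 on chromosome 16.

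The 3 higher regions became 0 with normexp, after quantile normalisation, after removal of the trend, in the authors' table and from the precipitate alone, and 1 with no filter on dim probes and with both channels required. The lower region was lost (0 regions) with normexp, loess, no filter, the authors' table and the precipitate alone, though with loess its difference was -0.50 after rounding, just under the size rule. The chromosome 16 region from 89015252 to 89015826 turned to -0.25 with no filter. The causes were not tested, apart from the steps named as acting by construction. Of the 34 named differences 26 kept their sign in the authors' table and 27 with normexp. No paired analysis was possible because each condition had 1 array. Slide as a block was not run for the same reason. The number of arrays limits precision, and in the epidermal differentiation complex dim input left 35.2% of probes out.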

Other observations

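Neighbouring probes of the clusters shared little of their ratio. Across 646 pairs under 300 bp apart, in DNA sheared to 200 to 1000 bp, the correlation was 0.03 in untreated and -0.0087 in treated cells, against 0.22 and 0.22 across 94190 pairs of the array. The epidermal differentiation complex had 0.14 and 0.07 (148 pairs) and the type II keratins -0.11 and -0.13 (212 pairs). Pairs share an array and a region, so these are descriptions. The spread of probes within a region, a median SD of 0.77 in untreated and 0.70 in treated cells, was close to the array's 0.77 and 0.69.

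The probes with the lowest ratios, below -2 as a mean of both arrays, numbered 45 in the clusters, 18 of them in the epidermal differentiation complex. The 45 were 4.39% of the kept probes of the clusters, near the background of 4.23% over the array. Of the 45, 6 had a measured precipitate on both arrays, as had 718 of 6024 such probes of the array. Their ratios are thus mostly bounds and no fold is given. The input of the 45 differed by a median of -0.51 and the precipitate signal, mostly not above background, by -0.0040. Over the 6024 the input differed by -0.47.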
